A study of Mus musculus with 53 samples.

Results

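Hepatocyte identity is held by a small network of DNA-binding regulators, and 9 of its genes were followed here across every liver of a mouse study of chronic and acute liver damage. They are named for their known roles: the nuclear receptor Hnf4a, the forkhead factors Foxa1, Foxa2 and Foxa3, the leucine zipper factor Cebpa, the bile acid receptor Nr1h4 (FXR), the xenobiotic receptors Nr1i2 (PXR) and Nr1i3 (CAR), and the homeobox factor Prox1. All 9 had a row in each of the 3 deposited count tables, out of 36410 genes that the tables shared, and all 9 passed the filter on low counts in every comparison. Whole liver was profiled with mRNA sequencing libraries made from total RNA, with 53 liver samples of male C57BL/6J mice in 9 groups.

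In the diet experiment, mice were 9 weeks old at the start and ate for 32 weeks. Its groups were 7 livers labelled Bmp8b knockout on Western diet, 7 wild-type livers on the same diet, and 9 wild-type livers on a low-fat control diet. In the toxin experiment, mice of 16 weeks were injected intraperitoneally with 2 µl per g body weight and livers were taken 3 days later. Here 6 knockout-labelled and 4 wild-type mice had carbon tetrachloride (CCl4, a solvent that kills hepatocytes around the central vein) mixed with an equal volume of olive oil, and 6 wild-type mice had olive oil alone. In the surgery experiment, also at 16 weeks, 4 knockout-labelled and 5 wild-type livers were taken 3 days after partial hepatectomy (surgical loss of some liver lobes, after which the remnant regrows), and 5 wild-type day-0 samples were the resected tissue itself. Mouse numbers recur between the wild-type day-0 and day-3 titles, and the labels do not say whether they are the same animals. The main test took these samples as unpaired. There were no knockout-labelled livers on low-fat diet, olive oil or day 0, so the genotype was compared under challenge only.

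The roles of these genes are well described. HNF4A is an orphan nuclear receptor that binds a broad set of hepatocyte genes for lipoproteins, clotting factors and bile acid metabolism, and its loss from adult liver dedifferentiates hepatocytes. FOXA proteins open closed chromatin during liver specification and help keep it open in the adult. C/EBPα drives metabolic genes in resting hepatocytes and restrains their division. FXR senses bile acids, PXR and CAR sense drugs and steroids, each pairs with the retinoid X receptor, and PROX1 is a corepressor partner of HNF4A that is also the defining factor of lymphatic endothelium.

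Libraries held 8963187 to 15196537 counts in the diet table, 2661699 to 6364414 in the CCl4 table and 2450358 to 6914274 in the surgery table. The lowest count of a member in any liver was 17, for Foxa1 in wild-type CCl4 liver 34. Hepatocyte markers were abundant in every liver, with a summed level of 68130 to 189200 CPM (counts scaled to the library total) over 10 genes, and pancreas acinar markers summed to at most 3.64 CPM. Adipocyte markers reached 43.6 CPM in wild-type day-3 liver 12N and 21.2 CPM in low-fat liver 18, against group medians of 0 to 1.63 CPM. Bmp8b, the gene named in the knockout label, had 6 to 33 counts in knockout-labelled against 7 to 30 in wild-type Western diet livers, 1 to 15 against 0 to 10 after CCl4, and 4 to 9 against 1 to 5 after hepatectomy. Olive oil livers had 0 Bmp8b counts, low-fat livers 0 to 3 and day-0 livers 0 to 5. The knockout-labelled range was thus not below the wild-type range in any challenge; the labels do not say which part of the gene was deleted, so this total does not check them.

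Levels are given as CPM after edgeR's TMM scaling within each table, and levels of different genes are compared only per kilobase of annotated exon. Per kilobase, Hnf4a was the most abundant member in 8 of the 9 groups and Foxa1 the least abundant in all 9. In low-fat livers Hnf4a stood at 139 ± 22.98 CPM per kilobase and Cebpa at 120 ± 18.1 (SD, n = 9), and the livers of these neighbours overlapped. Nr1i3 followed at 68.2 ± 20.7 and Nr1h4 at 65.6 ± 7.13 CPM per kilobase, again overlapping, and then Nr1i2 at 33.5 ± 3.36, below every liver's Nr1h4. Prox1 at 13.5 ± 3.11, Foxa3 at 12.7 ± 2.69 and Foxa2 at 9.91 ± 2.35 CPM per kilobase overlapped one another in turn, and Foxa1 came last at 4.90 ± 1.34, overlapping Foxa2. The level of Nr1i3 is uncertain because 74.85% of its exon bases are also exons of Tomm40l on the opposite strand, and the sources used here do not say whether counting used strand.

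**Figure D1:**
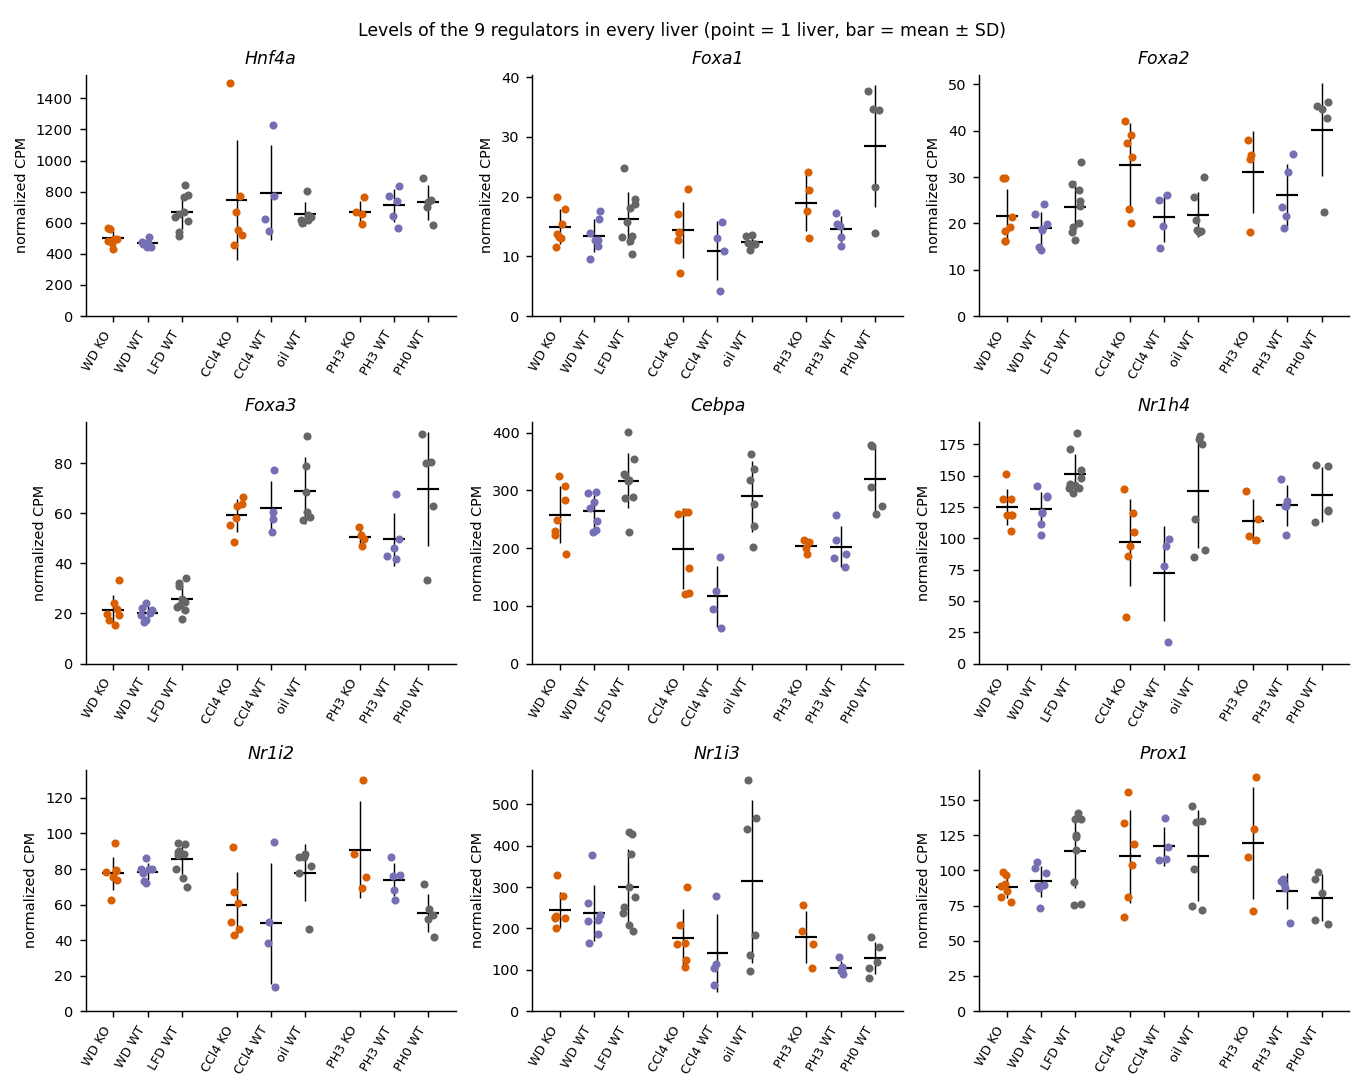
Normalized CPM of the 9 regulators (vertical axes, starting at 0) in the 53 livers, by group; KO is the knockout label, WD Western diet, LFD low-fat diet, oil olive oil, PH3 and PH0 day 3 and day 0 of hepatectomy. Points are livers and bars are mean ± SD. Hnf4a in wild-type Western diet livers lies below every low-fat liver, while knockout-labelled Western diet livers overlap the low-fat range. In each genotype 1 CCl4 liver carries the highest Hnf4a.

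In wild-type mice on Western diet, Hnf4a, Foxa3 and Nr1h4 fell, so 3 of the 9 members were lower than on low-fat diet and 0 were higher at an adjusted p under 0.05 (edgeR quasi-likelihood test with Benjamini-Hochberg adjustment over all 13005 genes tested). Of all genes tested, 17.0% were called lower and 20.4% higher. All 9 members had negative log2 differences, with a median of -0.30 against -0.02 over all genes. After CCl4, Cebpa fell, 1 of 9 members, against 8.87% of genes called lower, and 0 members were called higher, against 11.1% of genes. At day 3 after hepatectomy Foxa1 and Cebpa fell, 2 of 9 members, against 7.50% of genes called lower. In this unpaired test 0 members were called higher, against 9.87% of genes. The median log2 difference of the members was -0.17 after CCl4, against 0.05 over all genes, and -0.28 after hepatectomy, against -0.00472. All day-3 libraries carried i5 index D507 and all day-0 libraries D505 or D506. The index (a barcode on the sequencing adapter) and the day thus cannot be told apart. Wild-type CCl4 livers 4, 5 and 7 carried D503, and every olive oil liver carried D504 or D505. Index and CCl4 treatment thus cannot be fully told apart. In whole liver, fewer cells of a type and less RNA per cell cannot be told apart.

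**Figure D2:**
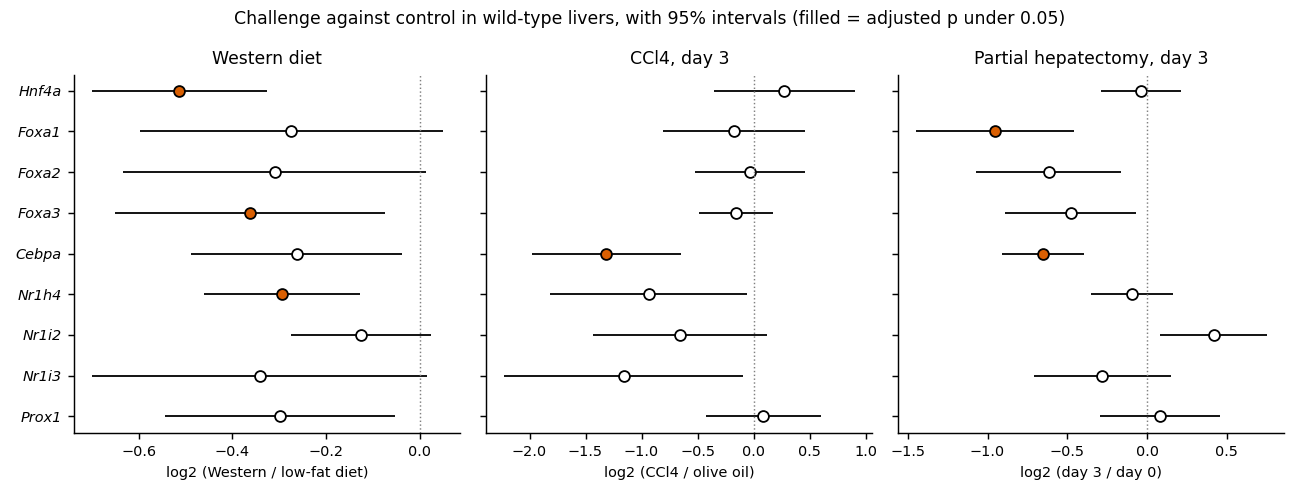
Log2 difference (horizontal axes, on a different scale in each panel) of challenged minus control wild-type livers for the 9 regulators, with 95% intervals from the edgeR fit; filled points passed an adjusted p of 0.05. Hnf4a, Foxa3 and Nr1h4 passed on Western diet, Cebpa after CCl4, and Foxa1 and Cebpa after hepatectomy.

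The 250 bases before the annotated start are shown for the 4 members whose change in a challenge was called in every fit that left out 1 liver (RefSeq starts, GRCm38.p6, some of which lie inside the gene bounds given further on, written 5′ to 3′ on the gene's strand). Capitals mark matches on either strand to 5 short motifs of liver factors, TGTTTAC (FOXA type), TTGCNNAA (C/EBP type), AGGTCA (nuclear receptor core), CAAAGTCCA (HNF4 type) and GTTAAT (HNF1 core). These occur in 3.17%, 9.56%, 14.0%, 0.384% and 6.43% of 32851 promoter windows of the same length. For Hnf4a the window is that of the downstream start, the one adult liver uses (chr2:163546905-163547154, plus strand).
Hnf4a: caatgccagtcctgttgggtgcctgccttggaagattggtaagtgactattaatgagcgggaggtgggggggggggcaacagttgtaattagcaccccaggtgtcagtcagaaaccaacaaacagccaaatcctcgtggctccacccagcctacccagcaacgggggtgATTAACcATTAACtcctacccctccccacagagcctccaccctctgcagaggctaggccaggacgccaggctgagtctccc
Cebpa (chr7:35119043-35119292, plus strand): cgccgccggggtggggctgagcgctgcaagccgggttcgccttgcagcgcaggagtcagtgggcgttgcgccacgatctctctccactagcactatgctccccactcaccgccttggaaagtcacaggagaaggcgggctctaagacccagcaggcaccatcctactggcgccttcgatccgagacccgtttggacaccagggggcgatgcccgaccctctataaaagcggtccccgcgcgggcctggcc
Foxa1 (chr12:57546112-57546361, minus strand): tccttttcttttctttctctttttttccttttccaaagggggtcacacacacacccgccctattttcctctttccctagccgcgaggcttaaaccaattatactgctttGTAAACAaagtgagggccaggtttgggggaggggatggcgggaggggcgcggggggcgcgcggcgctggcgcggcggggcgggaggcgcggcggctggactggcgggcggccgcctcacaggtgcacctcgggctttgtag
Nr1h4 (chr10:89506659-89506908, minus strand): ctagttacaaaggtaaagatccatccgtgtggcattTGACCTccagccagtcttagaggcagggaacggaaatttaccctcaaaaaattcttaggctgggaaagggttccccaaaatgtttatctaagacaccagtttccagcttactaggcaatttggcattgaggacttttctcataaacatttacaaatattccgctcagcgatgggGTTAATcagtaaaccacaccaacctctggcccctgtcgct
The Hnf4a window held 2 HNF1 cores on 1 strand with a single base between them, the Foxa1 window 1 FOXA type match and the Nr1h4 window 1 nuclear receptor core and 1 HNF1 core. None of the 5 motifs was found in the Cebpa window. A match is a stretch of letters, not a shown binding site.

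Hnf4a (chr2:163506808-163572910, plus strand) was lower on Western diet in every wild-type liver. Its lowest, median and highest levels were 444, 466 and 508 CPM in wild-type Western diet livers, against 513, 656 and 845 CPM in low-fat livers. All 7 Western diet livers lay below the lowest low-fat liver, and they spread far less, with an SD of 21.6 CPM around a mean of 468, against 111 around 669. The log2 difference was -0.51 (SE 0.0905, 95% interval -0.70 to -0.33), a 1.43-fold lower level, with an adjusted p of 0.000121 from edgeR. Within the livers of sequencing i5 index D501 the difference was -0.73 with an edgeR adjusted p of 0.000624, and within D502 it was -0.34 with 0.0514.

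After the acute challenges Hnf4a did not pass the test. CCl4 livers of wild-type mice had 544, 626, 770 and 1230 CPM, against 601, 628 and 807 CPM (lowest, median, highest) in olive oil livers. One CCl4 liver lay far above and another below the whole olive oil range, and the log2 difference was 0.27 (SE 0.298, edgeR adjusted p 0.553). It was -0.02 without CCl4 livers 34 and 35. At day 3 after hepatectomy wild-type livers had 565, 647, 739, 774 and 837 CPM, against 583, 702.3, 732, 747 and 890 CPM at day 0. These ranges almost coincided, and the 95% interval of the log2 difference ran from -0.29 to 0.21 around -0.04.

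Foxa1 (chr12:57540628-57546916, minus strand) fell after hepatectomy. Day-3 wild-type livers had 11.7, 13.2, 15.1, 15.4 and 17.3 CPM, against 13.9, 21.6, 34.5, 34.7 and 37.7 CPM at day 0. The groups overlapped through 1 day-0 liver, 12N, at 13.9 CPM, and the other 4 day-0 livers lay above all day-3 livers. The log2 difference was -0.95 (SE 0.239), a 1.94-fold lower level, with an edgeR adjusted p of 0.00812. On Western diet Foxa1 had lowest, median and highest levels of 9.55, 12.7 and 17.7 CPM in wild-type livers, against 10.3, 15.7 and 24.8 CPM on low-fat diet (log2 difference -0.27, SE 0.157, edgeR adjusted p 0.176). CCl4 livers had 4.12, 10.8, 13.0 and 15.7 CPM, against 11.1, 12.2 and 13.6 CPM (lowest, median, highest) in olive oil livers. Olive oil livers kept within a narrow band that CCl4 livers left on both sides, and the log2 difference was -0.17 (SE 0.301, edgeR adjusted p 0.724).

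Foxa2 (chr2:148042877-148046969, minus strand) and Foxa3 (chr7:19013284-19023538, minus strand) are the paralogues of Foxa1, and Foxa2 is also a regulator of bile acid and lipid handling. After hepatectomy Foxa2 had 19.0, 21.7, 23.6, 31.1 and 35.0 CPM at day 3, against 22.4, 42.6, 44.7, 45.3 and 46.2 CPM at day 0. Day-0 liver 12N was again the exception, as the other 4 exceeded every day-3 liver. The log2 difference of -0.61 (SE 0.217) missed the threshold with an edgeR adjusted p of 0.0561, and it was called without liver 12N, at -0.78 with 0.00718. It was also called with the mouse number as a replicate block, a fit given further on. Foxa3 had 41.8, 42.8, 46.0, 49.7 and 67.8 CPM at day 3, against 33.6, 63.1, 80.2, 80.6 and 91.7 CPM at day 0. Liver 12N was below all day-3 livers for this gene, and the log2 difference of -0.48 (SE 0.197, edgeR adjusted p 0.104) became -0.67 with 0.00223 without it.

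On Western diet Foxa3 had lowest, median and highest levels of 16.4, 20.0 and 24.1 CPM in wild-type livers, against 17.8, 24.8 and 34.3 CPM on low-fat diet. The ranges overlapped, with 2 of 7 Western diet livers below all low-fat livers, and the log2 difference was -0.36 (SE 0.14, edgeR adjusted p 0.0442). This call is the least firm of the 3: it was lost in 12 of 23 fits that left out 1 liver, where adjusted p reached 0.0919. Foxa2 had 14.2, 18.8 and 24.2 CPM in wild-type Western diet livers, against 16.4, 23.8 and 33.3 CPM in low-fat livers (log2 difference -0.31, SE 0.157, edgeR adjusted p 0.124). After CCl4, Foxa2 had 14.8, 19.4, 25.01 and 26.1 CPM, against 18.1, 19.7 and 29.9 CPM (lowest, median, highest) with olive oil. Foxa3 had 52.7, 57.6, 60.4 and 77.4 CPM after CCl4, against 57.4, 64.4 and 90.7 CPM with olive oil. Both genes overlapped their controls widely, with log2 differences of -0.03 (SE 0.233) and -0.16 (SE 0.156). Foxa3 stood at 15.5 to 34.3 CPM over all diet livers and at 33.6 to 91.7 CPM over all livers of the other tables, but the tables were scaled separately and the surgery table was counted on another gene list, so this gap was not tested.

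Cebpa (chr7:35119293-35121928, plus strand) fell after both acute challenges. Wild-type CCl4 livers had 61.0, 94.97, 125 and 185 CPM, against 203, 298 and 364 CPM (lowest, median, highest) in olive oil livers. All 4 CCl4 livers lay below the lowest olive oil liver, and the log2 difference was -1.31 (SE 0.314, 95% interval -1.98 to -0.65), a 2.48-fold lower level, with an edgeR adjusted p of 0.00876. After hepatectomy the day-3 levels were 168, 184, 190, 215 and 257 CPM, against 259, 272, 307, 378 and 379 CPM at day 0. Again the groups did not overlap, with all 5 day-3 livers below day 0, by a log2 difference of -0.65 (SE 0.123), 1.57-fold lower, with an edgeR adjusted p of 0.00084. On Western diet wild-type livers had 229, 270 and 298 CPM, against 228, 319 and 402 CPM on low-fat diet, and here the ranges overlapped fully at the low end (log2 difference -0.26, SE 0.109, edgeR adjusted p 0.0611). With only the 3 olive oil livers of index D504 as controls the CCl4 difference was -1.49 (edgeR adjusted p 0.0245), and with only the 3 of D505 it was -1.12 (0.0947).

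Nr1h4 (chr10:89454234-89533585, minus strand) was modestly lower on Western diet. Its lowest, median and highest levels were 103, 121 and 142 CPM in wild-type livers, against 136, 143 and 184 CPM on low-fat diet. Of the Western diet livers 6 of 7 lay below the lowest low-fat liver, and the log2 difference was -0.29 (SE 0.0805), 1.23-fold lower, with an edgeR adjusted p of 0.00574. CCl4 livers of wild-type mice had 16.9, 78.0, 93.8 and 99.1 CPM, against 85.4, 145 and 182 CPM in olive oil livers. Liver 34, the lowest of all 53 for this gene, stood far from the other 3, and the log2 difference of -0.94 (SE 0.416, edgeR adjusted p 0.123) became -0.61 without it. After hepatectomy day-3 livers had 102, 126, 126, 130 and 148 CPM, against 113, 122, 123, 158 and 159 CPM at day 0, with overlap throughout (log2 difference -0.10, 95% interval -0.35 to 0.16).

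Nr1i2 (chr16:38248323-38294824, minus strand), which encodes the drug sensor PXR, showed values on opposite sides of its controls in the acute challenges. CCl4 livers had 13.8, 38.4, 50.2 and 95.4 CPM, against 46.4, 84.3 and 88.7 CPM (lowest, median, highest) with olive oil. In all, 2 CCl4 livers were below and 1 above the whole olive oil range, and the log2 difference was -0.66 (SE 0.367, edgeR adjusted p 0.219). Day-3 livers had 62.6, 67.9, 75.9, 76.8 and 86.9 CPM after hepatectomy, against 41.7, 51.9, 54.1, 57.3 and 71.3 CPM at day 0. Of the day-3 livers 3 of 5 exceeded every day-0 liver, and the log2 difference of 0.42 (SE 0.16) had an edgeR adjusted p of 0.0796. This rise was called with the mouse number as a replicate block, a fit given further on. Western diet livers had 72.3, 79.9 and 86.2 CPM, against 70.0, 88.5 and 94.6 CPM on low-fat diet, the smallest difference of the 9 members (-0.12, SE 0.0727, edgeR adjusted p 0.183).

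Nr1i3 (chr1:171213970-171220701, plus strand) encodes CAR, the sensor of phenobarbital-like compounds, and its count may include Tomm40l reads. Wild-type CCl4 livers had 64.2, 104, 114 and 280 CPM, against 96.3, 313 and 559 CPM in olive oil livers. In CPM its SD was largest in olive oil livers, 198 around a mean of 314. Wild-type CCl4 livers had 95.3 around a mean of 140, so relative to the mean olive oil livers did not vary more. The log2 difference was -1.16 (SE 0.506, edgeR adjusted p 0.116). Day-3 livers after hepatectomy had 88.9, 96.3, 102, 108 and 132 CPM, against 81.2, 105, 118, 155 and 178 CPM at day 0, and all day-3 livers lay inside the day-0 range (-0.28, SE 0.205, edgeR adjusted p 0.393). Western diet livers had 166, 222 and 377 CPM, against 194, 277 and 433 CPM on low-fat diet (log2 difference -0.34, SE 0.174, edgeR adjusted p 0.126).

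Prox1 (chr1:190118035-190170714, minus strand) passed the test in no challenge of wild-type mice. On Western diet it had 73.3, 89.9 and 106 CPM, against 75.4, 123 and 141 CPM on low-fat diet. Low-fat livers spread widely, Western diet livers sat in the lower part of that range, and the log2 difference of -0.30 (SE 0.119) just missed the threshold with an edgeR adjusted p of 0.0507. CCl4 livers had 108, 108, 117 and 137 CPM, against 72.1, 118 and 146 CPM with olive oil (log2 difference 0.09, 95% interval -0.43 to 0.60). Day-3 livers had 62.6, 87.7, 90.2, 92.4 and 94.0 CPM, against 62.0, 64.5, 83.9, 94.0 and 99.1 CPM at day 0 (log2 difference 0.08, 95% interval -0.30 to 0.46). Markers of lymphatic endothelium, another source of Prox1, summed to 33.2 to 55.5 CPM on Western diet, against 19.2 to 34.2 CPM on low-fat diet. They summed to 18.4 to 26.6 CPM after CCl4 against 7.46 to 29.9 CPM with olive oil, and to 19.9 to 31.7 CPM at day 3 against 21.7 to 28.2 CPM at day 0. Of the 4 markers only Flt4 passed the filter on low counts, so these sums are a weak measure of lymphatic endothelium. The part of lymphatic endothelium in the Prox1 level was not tested.

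Markers of other cells moved with the challenges. On Western diet 8 of 10 hepatocyte markers were called lower and 0 higher, and their summed level was 68130 to 98780 CPM in wild-type livers, against 102800 to 138200 CPM on low-fat diet. Called higher on the diet were 6 of 8 macrophage, 6 of 8 stellate cell, 5 of 7 cholangiocyte and 7 of 7 cell division markers. The summed division markers reached 25.7 to 652.6 CPM after CCl4, against 4.07 to 15.3 CPM with olive oil, and 125 to 305.5 CPM at day 3, against 4.52 to 13.7 CPM at day 0. Stellate cell markers were called higher for 4 of 8 after CCl4 and 4 of 8 after hepatectomy. Of the hepatocyte markers 1 was called higher and 1 lower after CCl4, with sums of 92950 to 164600 CPM against 117400 to 155300 CPM with olive oil. After hepatectomy 2 were higher and 2 lower, with sums of 148200 to 171600 CPM at day 3 against 102400 to 123300 CPM at day 0. The part of these shifts in the lower Hnf4a, Foxa3, Nr1h4, Cebpa and Foxa1 was not tested.

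The responses to the 3 challenges were set against each other in 1 fit of all 53 libraries. CCl4 minus Western diet differed for 2 of 9 members, against 16.1% of 12646 genes in either direction: Hnf4a at 0.77 (SE 0.243, edgeR adjusted p 0.0237) and Cebpa at -1.06 (SE 0.27, edgeR adjusted p 0.00539), which is a stronger fall of Cebpa after CCl4. CCl4 minus hepatectomy differed for 1 of 9, against 6.09% of genes: Nr1i2 at -1.08 (SE 0.331, edgeR adjusted p 0.0408). Hepatectomy minus Western diet differed for 0 of 9, against 3.53% of genes, with 1 member at an unadjusted p under 0.05 and 0 members by DESeq2. The difference of Hnf4a was lost without CCl4 liver 34 (0.49, adjusted p 0.163), and that of Nr1i2 was lost in 13 of 36 fits that left out 1 wild-type liver, with adjusted p up to 0.10. The difference of Cebpa was called in all 36 such fits.

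No member passed the test between knockout-labelled and wild-type livers under any challenge. On Western diet 0 of 9 members were called, against 0.0154% of genes, and the largest log2 difference was 0.18 for Foxa2 (95% interval -0.16 to 0.53). Hnf4a had lowest, median and highest levels of 429, 496 and 569 CPM in knockout-labelled livers, against 444, 466 and 508 CPM in wild-type livers on the diet. Both genotypes thus lay in the lower range of the low-fat livers or below it, and the interval of the difference, -0.10 to 0.29, is narrower than for any member but Nr1h4 and Nr1i2. No member had an unadjusted p under 0.05 there, and DESeq2 also called 0.

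After CCl4, 0 of 9 members were called, against 0.00857% of genes, and DESeq2 called 0 as well. Here 2 members had an unadjusted p under 0.05, both higher in knockout-labelled livers, as had 719 of 11663 genes in either direction. Foxa2 had 20.1, 35.8 and 42.1 CPM (lowest, median, highest) in knockout-labelled livers, against 14.8, 19.4, 25.01 and 26.1 CPM in wild-type livers, and 4 of 6 exceeded all wild-type livers (log2 difference 0.61, SE 0.236, edgeR adjusted p 0.77). Cebpa had 121, 212 and 262 CPM in knockout-labelled livers, against 61.0, 94.97, 125 and 185 CPM in wild-type livers (log2 difference 0.77, SE 0.308, edgeR adjusted p 0.77). Of the knockout-labelled livers 3 of 6 lay above every wild-type CCl4 liver, and the 95% interval ran from 0.12 to 1.42.

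At day 3 after hepatectomy 0 of 9 members were called, against 0.154% of genes, and DESeq2 called 0. Here Nr1i3 and Prox1, 2 of 9 members, had an unadjusted p under 0.05, as had 1001 of 11026 genes. Nr1i3 had 104, 163, 194 and 256 CPM in knockout-labelled livers, against 88.9, 96.3, 102, 108 and 132 CPM in wild-type livers, and 3 of 4 exceeded all wild-type livers (log2 difference 0.77, SE 0.216, edgeR adjusted p 0.207). Prox1 had 71.1, 110, 130 and 166 CPM in knockout-labelled livers, against 62.6, 87.7, 90.2, 92.4 and 94.0 CPM in wild-type livers, with 3 of 4 above every wild-type liver (log2 difference 0.48, SE 0.19, edgeR adjusted p 0.446). Foxa1 and Cebpa were the members that fell after hepatectomy in wild-type mice. For Foxa1, 3 of 4 knockout-labelled livers exceeded all wild-type livers (log2 difference 0.39, 95% interval -0.155 to 0.934, edgeR adjusted p 0.701). For Cebpa, knockout-labelled livers had 190, 201, 210 and 214 CPM, inside the wild-type range of 168 to 257 CPM. Its 95% interval was -0.27 to 0.28.

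**Figure D3:**
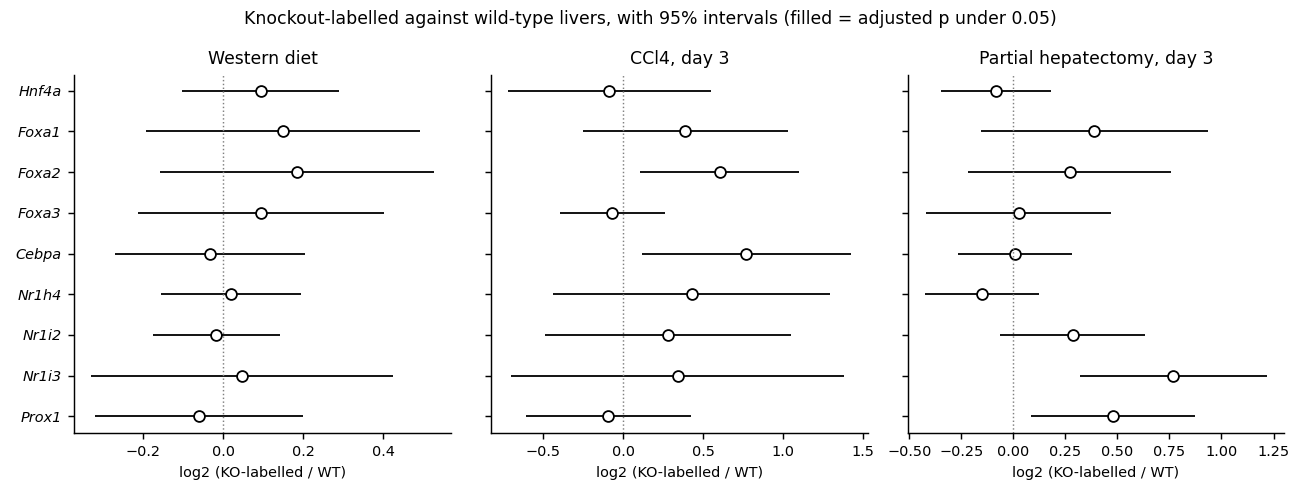
Log2 difference of knockout-labelled minus wild-type livers for the 9 regulators under each challenge (horizontal axes, on a different scale in each panel), with 95% intervals from the edgeR fit. No point is filled, since no member passed an adjusted p of 0.05, and the intervals are narrowest on Western diet.

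Olive oil livers carried 2 i5 indices, with 3 livers each, and some members separated between them. Nr1i3 had 442, 467 and 559 CPM in the livers of index D504, and 96.3, 135 and 184 CPM in those of D505, a 3.53-fold ratio of means. Nr1h4 had 175, 179 and 182 CPM at D504 and 85.4, 90.8 and 115 CPM at D505, and Prox1 had 134, 135 and 146 CPM at D504 and 72.1, 74.5 and 101 CPM at D505. These 3 genes did not overlap between the indices and neither did Foxa2, which was lower at D504 (18.1 to 18.6 CPM) than at D505 (20.8 to 29.9 CPM). The other 5 members overlapped. The share of all genes that separate by index was not counted, so the split cannot be read as particular to these members. Sinusoidal endothelial markers summed to 95.7 to 110 CPM at D504 and to 169 to 218 CPM at D505, and stellate cell markers to 70.5 to 95.9 CPM and 151 to 179 CPM. The labels call neither index a batch, 3 against 3 livers cannot give an exact two-sided permutation p below 0.10, and the cause was not tested.

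**Figure D4:**
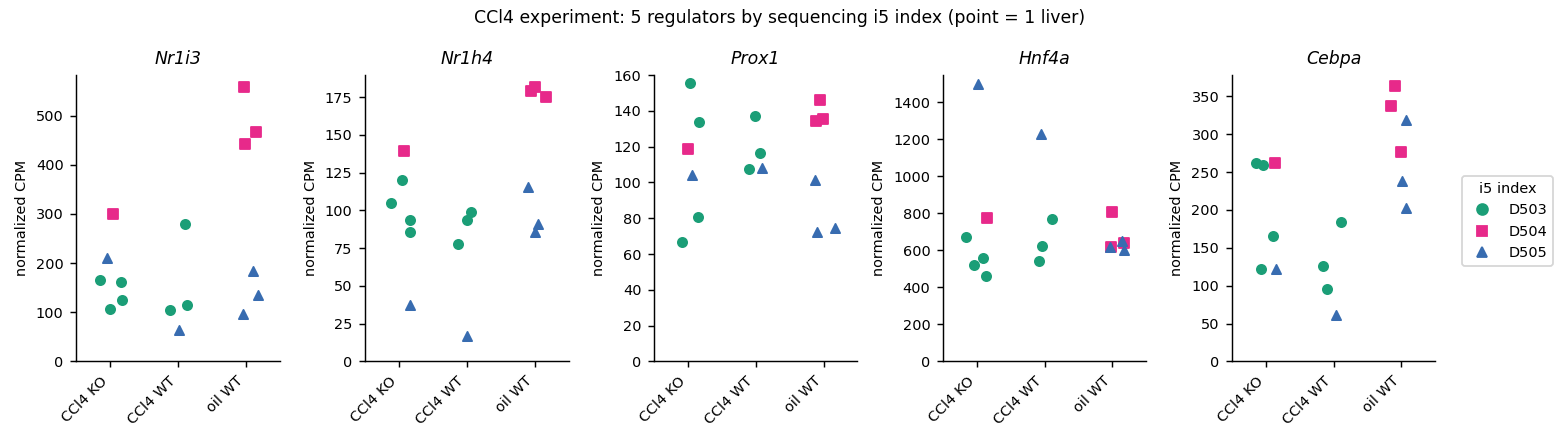
Normalized CPM (vertical axes, starting at 0) of 5 regulators in the 16 livers of the CCl4 experiment by group, with the i5 index as symbol and colour; each point is a liver. Olive oil livers of D504 and D505 separate for Nr1i3, Nr1h4 and Prox1 and mix for Hnf4a and Cebpa, and the CCl4 livers of D505 carry the highest Hnf4a and the lowest Nr1h4.

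With the i5 index as a covariate, 4 members were called between wild-type CCl4 and olive oil livers: Cebpa at -1.57, Nr1h4 at -1.57 (edgeR adjusted p 0.00185), Foxa1 at -0.99 (0.0149) and Hnf4a at 0.92 (0.0107). That fit ties the indices together through only 3 CCl4 livers, wild-type 34 and knockout-labelled 35 at D505 and knockout-labelled 22 at D504. The share of all genes that it called is not given here, so the count describes the members only. Against olive oil livers of D504 alone Nr1i3 was called lower (-1.80, edgeR adjusted p 0.0222), and against those of D505 alone its difference was 0.02. The call for Nr1i3 after CCl4 thus changed with the olive oil livers used as controls.

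The CCl4 livers of index D505, wild-type 34 and knockout-labelled 35, stood apart from the other CCl4 livers for several members. Hnf4a reached 1230 CPM in wild-type 34 and 1497 CPM in knockout-labelled 35, the 2 highest values of all 53 livers. Nr1h4 was 16.9 CPM in wild-type 34 and 37.3 CPM in knockout-labelled 35, and Foxa1 4.12 and 7.26 CPM, in each case the 2 lowest of the 53. Their summed division markers were 25.7 CPM in wild-type 34 and 29.5 CPM in knockout-labelled 35, against 159 to 699 CPM in the other 8 CCl4 livers. Their macrophage markers were the highest of the experiment, 702.7 and 850 CPM, and their neutrophil markers summed to 200.2 and 83.6 CPM, against 4.02 to 65.1 CPM in the other 8. Their sinusoidal endothelial markers summed to 212 and 256 CPM, against 102 to 152 CPM in the other 8. Without both livers Cebpa was still lower after CCl4, by -1.10 (edgeR adjusted p 0.00775), while Hnf4a was at -0.02, Foxa1 at 0.09 and Nr1h4 at -0.61 (adjusted p 0.0804).

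Whether members varied together between mice was examined over the 14 Western diet livers, with the mean of each genotype removed. Of 36 pairs, 2 were correlated (adjusted p under 0.05 by Benjamini and Hochberg across these pairs, permutation tests, 100000 draws, two-sided). For Foxa2 with Cebpa, Pearson's r was 0.79 (p 0.00113, adjusted 0.023) and Spearman's rho 0.80 (p 0.00088, adjusted 0.0293, same permutation test). For Hnf4a with Foxa1, r was 0.78 (p 0.00128, adjusted 0.023) and rho 0.78 (p 0.00163, adjusted 0.0293, same permutation test). Without the 2 livers farthest from the median of the first gene, r was 0.64 and 0.67. Within the 8 livers of index D501, r was 0.75 for Foxa2 with Cebpa and 0.94 for Hnf4a with Foxa1, and within the 6 of D502 it was 0.86 and 0.81. Without knockout-labelled liver 1 and wild-type livers 32 and 36 the same pairs had r of 0.71 and 0.75 over 11 livers, and no pair passed the threshold (adjusted permutation p 0.12 for both). No rule that sets these livers apart is given here. Their summed division markers were 10.3, 13.2 and 14.1 CPM, and the kept knockout-labelled livers 33 and 15 had 12.2 and 13.6 CPM.

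**Figure D5:**
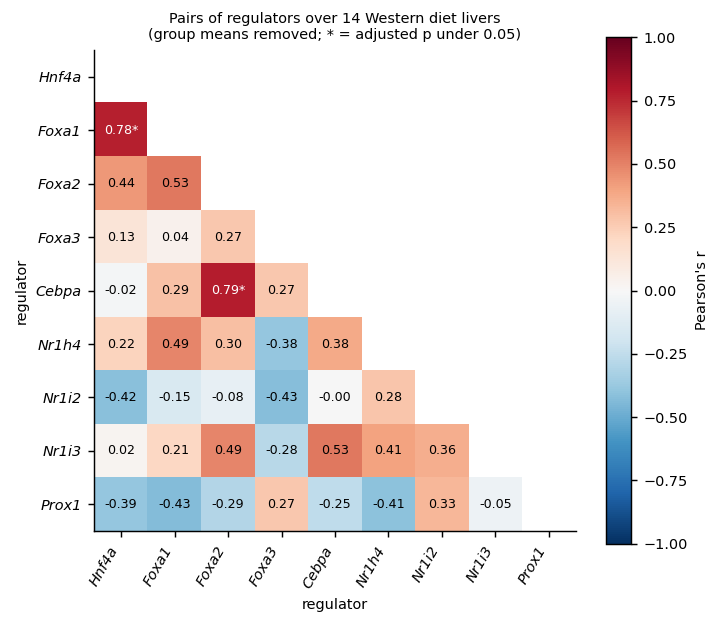
Pearson's r (colour and printed value) for the 36 pairs of the 9 regulators over the 14 Western diet livers, with genotype means removed; an asterisk marks an adjusted permutation p under 0.05. The 2 marked pairs are Foxa2 with Cebpa and Hnf4a with Foxa1.

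In the other challenges these relations were described without a test. Over the 10 CCl4 livers, with group means removed, Foxa2 with Cebpa had an r of 0.88, and 0.79 without livers 34 and 35. Hnf4a with Foxa1 had an r of -0.81 over those 10 livers and -0.19 without the 2, so the negative value rests on livers that carry the highest Hnf4a and the lowest Foxa1. Over the 9 day-3 livers r was 0.32 for Foxa2 with Cebpa and 0.51 for Hnf4a with Foxa1.

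Other regulators of the liver were read from lists chosen by their known roles. These and the target lists below were chosen with earlier results of these data known. Of all genes tested, 17.0% were called lower and 20.4% higher on Western diet. The shares were 8.87% lower and 11.1% higher after CCl4, and 7.50% lower and 9.87% higher after hepatectomy. The counts of these lists and of the target lists stand beside those shares and were not tested against them. Of 20 other liver transcription factors, 7 were lower and 0 higher on Western diet, among them Mlxipl, the carbohydrate sensor ChREBP (-0.53, edgeR adjusted p 0.00189), the homeobox gene Hhex (-0.67, 0.0019) and Nfib, a nuclear factor I gene (-0.25, 0.00427). Mlxipl was lower after CCl4 too (-1.82, edgeR adjusted p 0.000409), with Tbx3, a gene of pericentral hepatocytes (-2.13, 0.0186), 2 of 20 in all. After hepatectomy 2 of 19 were lower, Mlxipl (-0.42, edgeR adjusted p 0.0038) and Hhex (-0.84, 0.00599). Hhex had one of the 3 patterns most like that of Foxa3 over the 53 livers (r = 0.56).

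Among other nuclear receptors, 3 of 28 were higher and 5 lower on Western diet, against 20.4% and 17.0% of all genes. They included Pparg, the receptor of lipid storage (1.15, edgeR adjusted p 1.38e-05), the retinoic acid receptor Rarb (0.73, 0.000167) and the thyroid hormone receptor Thrb (-0.34, 0.00134). After CCl4, 3 of 26 were lower and 0 higher: Rara (-0.86, edgeR adjusted p 0.00617), the clock repressor Nr1d1 (-1.40, 0.0275) and the oxysterol receptor Nr1h3 (-0.70, 0.0342). After hepatectomy 2 of 25 were higher and 5 lower, with Rora higher (0.56, edgeR adjusted p 0.000967) and Nr1d1 (-0.95, 0.00219) and Nr0b2 lower (-1.15, 0.0039). Of 12 coregulators 1 was called on Western diet, the corepressor Ncor1 (-0.26, edgeR adjusted p 0.00422). After CCl4 and after hepatectomy edgeR called 0 of the 12, with 0 and 0 at an unadjusted p under 0.05.

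Genes that the members are known to drive did not move as 1 block. Of 18 HNF4A target genes, 9 were lower and 4 higher on Western diet, 7 lower and 1 higher after CCl4, and 6 lower and 1 higher after hepatectomy, while Hnf4a itself was called only on the diet. The lower ones on Western diet included the clotting factor gene F7 (-0.66, edgeR adjusted p 0.000213), the transthyretin gene Ttr (-0.48, 0.000657) and Apoc3 (-0.40, 0.000972). After CCl4 they included the bile acid ligase gene Slc27a5 (-1.35, edgeR adjusted p 0.000124), Apoa2 (-1.71, 0.000409) and the sterol exporter Abcg8 (-1.26, 0.00186). After hepatectomy they included the deiodinase gene Dio1 (-2.23, edgeR adjusted p 2.49e-05), Abcg8 (-0.97, 2.52e-05) and Apoa2 (-0.74, 0.000121).

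Of 7 FOXA targets 5 were lower on Western diet, led by Tat, of tyrosine breakdown (-1.25, edgeR adjusted p 3.04e-05), Alb (-0.62, 0.000247) and Cps1, of the urea cycle (-0.88, 0.000591). After CCl4 edgeR called 0 of the 7, with 2 at an unadjusted p under 0.05 and a median log2 difference of -0.25. After hepatectomy Alb (0.76, edgeR adjusted p 7.44e-05) and Igfbp1 (2.12, 0.00372) were higher and Apoa1 lower (-0.43, 0.00478). Of 8 C/EBPα targets 4 were lower on Western diet and 1 higher, Hp, of the acute phase (0.96, edgeR adjusted p 2.75e-05). After CCl4, where Cebpa fell most, 1 of the 8 was called, Ugt1a1 (-1.19, edgeR adjusted p 0.00166). In all, 4 of the 8 had an unadjusted p under 0.05 there, as had 4006 of 11663 genes in either direction. The other ones were Gys2 (-0.96), F9 (-0.53) and G6pc (-1.31), also lower, while Hp was at 0.93 and not among them. After hepatectomy Ugt1a1 was lower (-0.53, edgeR adjusted p 0.0244) and Alb higher.

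Of 8 genes induced by FXR, the bile salt pump Abcb11 was lower on Western diet (-0.78, edgeR adjusted p 0.000193), and Apoc2 (0.46, 0.00183) and the phospholipid exporter Abcb4 (0.33, 0.00247) were higher. After CCl4, 1 of 7 was lower, Pltp (-1.44, edgeR adjusted p 0.0378), and after hepatectomy Nr0b2 was lower and the transporter gene Slc51b higher (2.20, 0.0471). The FXR-repressed Cyp8b1, a sterol hydroxylase, was lower after CCl4 (-1.69, edgeR adjusted p 0.0101). In knockout-labelled against wild-type livers 3 days after hepatectomy, Nr0b2, the repressor SHP, was higher (1.51, edgeR adjusted p 0.0348), and Cyp7a1, the rate-limiting enzyme of bile acid synthesis that SHP represses, was lower (-1.80, 0.044). These were the only calls of any of the 10 lists in the 3 knockout comparisons, and Nr1h4 itself had a log2 difference of -0.15 there (95% interval -0.43 to 0.12).

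Of 9 PXR targets 4 were higher and 0 lower on Western diet, with Cyp3a11 (1.30, edgeR adjusted p 3.91e-06), the fatty acid carrier Cd36 (1.35, 8.23e-05) and Abcc3 (0.66, 9.98e-05) foremost. After hepatectomy 3 were higher, Cyp2c55 (2.65, edgeR adjusted p 4.28e-07), Cyp3a11 (1.43, 1.66e-06) and Cd36 (1.46, 1.44e-05), and 1 lower. After CCl4, 2 were lower, Ugt1a1 and the carboxylesterase gene Ces2a (-2.32, edgeR adjusted p 0.00806). Of 10 CAR targets 2 were higher on Western diet, Gadd45b (2.05, edgeR adjusted p 0.000235) and Ephx1 (0.57, 0.000409), and 1 lower, Cyp2c37 (-1.17, 0.0063). After CCl4, 3 were lower, Cyp2c37 (-3.70, edgeR adjusted p 4.22e-05), Ugt1a1 and Cyp2c29 (-4.71, 0.00264), and after hepatectomy 3 were higher and 2 lower, with Por higher (0.60, 0.00371) and Cyp2c37 lower (-1.02, 0.00594). The cytochrome P450, carboxylesterase and UGT genes have near-identical relatives that counting may have split, so their values are uncertain.

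The gene whose level followed each member most closely over the 53 livers, after the mean of each table was removed, was sought among 8877 genes whose mean reached 5 CPM. For Nr1h4 it was Cyp2d37-ps (r = 0.92), followed by Ido2 (r = 0.92) and Slc25a23 (r = 0.91). For Cebpa it was Hebp1 (r = 0.90), then Fn3k (r = 0.89) and Hdac11 (r = 0.87), and for Hnf4a it was Wdr26 (r = 0.82), Spin1 (r = 0.81) and Nrbp2 (r = 0.81). Nr1i3 was followed most closely by Eci2 (r = 0.79), Nr1i2 by Slc6a13 (r = 0.76), Foxa2 by Phlda1 (r = 0.77), Foxa1 by Ipo8 (r = 0.71), Foxa3 by Rbbp4 (r = 0.62) and Prox1 by Bcl6 (r = 0.63). Foxa1 was the second gene most like Foxa2 (r = 0.66), while Foxa2 was not among the 3 most like Foxa1. These values describe livers that share groups and libraries, and no test was run on them.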

How the data were processed

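The deposited files are 3 tables of raw counts per Ensembl gene, 1 for each experiment, which the authors made with TopHat2 2.0.11 and HTSeq on GRCm38, per the submitters' processing notes; the strand setting is not given in the sources used here. Gene symbols and exon lengths came from GENCODE on GRCm38. The diet and CCl4 tables list 38293 genes each and the surgery file lists 53379. Each table was fitted with edgeR 4.0.16 (R 4.3.3): TMM scaling, filterByExpr, a quasi-likelihood F-test with 3 groups per table, and Benjamini-Hochberg adjustment at 0.05. Differences between responses came from 1 fit of the 53 libraries over the shared genes. DESeq2 1.42.0, no filter, a fold of 1.2, the i5 index and left-out livers were alternatives. Pair correlations used log2(CPM + 0.5). Fits were tested on simulated data. Precision is limited by 4 to 9 livers per group and by library totals of 2450358 to 15196537; p-values measure the spread between these liver samples. No columns were left out. The 9 genes and all lists were chosen with earlier results of these data known. Named genes are all members, up to 3 called genes of smallest p per list and comparison, and the 3 most like each member.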

Additional observations from a re-analysis of the deposited data

Results flagged for a closer look

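In 5 of the 81 combinations of a member and a group, 1 liver stood apart from the rest of its group by the gap-to-range ratio; chance gives about 1 in 20. Hnf4a was 1497 CPM in knockout-labelled CCl4 liver 35, with the next at 775, and 807 CPM in olive oil liver 27, with the next at 651. Foxa2 was 22.4 CPM in day-0 liver 12N, with the next at 42.6. Nr1i2 was 46.4 CPM in olive oil liver 28, with the next at 77.6, and Prox1 was 62.6 CPM in wild-type day-3 liver 14N, with the next at 87.7.

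In all, 3 differences between responses passed the test of the difference itself. CCl4 minus hepatectomy was -1.08 on the log2 scale for Nr1i2, which passed the test in neither challenge alone. CCl4 minus Western diet was 0.77 for Hnf4a, which passed on the diet and not after CCl4, and -1.06 for Cebpa, which passed after CCl4 and not on the diet.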

How the results depend on the processing

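Over all refits, log2 differences of members kept their sign and their side of the threshold 1195 times, were no longer called 40 times, newly called 45 times and changed sign 18 times, never when called.

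The counts below are given without the share of all genes called under the same setting, so they describe the members only. Between Western and low-fat wild-type livers 3 members were called. There were 1 against a fold of 1.2, 5 without livers 1, 32 and 36, 5 within index D501 and 0 within D502, a fit with fewer livers. Between CCl4 and olive oil, 1 was called, and 4 with the i5 index, 2 against D504 and 0 against D505 olive oil livers. Between day 3 and day 0, 2 were called, and 4 without the filter. With the mouse number as a replicate block 4 were called: Foxa1, Cebpa, Foxa2 (-0.60, edgeR adjusted p 0.012) and Nr1i2 (0.44, 0.0201). The labels do not say what a shared number means, and same-numbered livers correlated at -0.0206 to 0.0898. Day-0 samples 15 and 16 correlated best with their own number at day 3 (r = 0.0756 and 0.0898), and the other numbers did not. Over the 3 numbers written alike at both days, 2 were called, Foxa2 and Cebpa. Between knockout-labelled and wild-type day-3 livers 0 were called, and 1 (Nr1i3) without the filter. CCl4 minus hepatectomy had 1 call, and 0 without the filter or against a fold of 1.2; without livers 34 and 35 the 1 call was Foxa1. CCl4 minus Western diet had 2 calls, and 1 against a fold of 1.2 or without livers 34 and 35. The 2 correlated pairs became 0 without livers 1, 32 and 36, a set of 11.

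Leaving out each liver gave 2 to 5 calls on Western diet, 1 to 3 after CCl4, 2 to 5 after hepatectomy, 0 to 2 for CCl4 minus hepatectomy and 1 to 4 for CCl4 minus Western diet. Signs turned in uncalled members only. After CCl4 without livers 34 and 35, Hnf4a was -0.0186, Foxa1 0.09 and Foxa2 0.11. Against D504 olive oil livers Foxa2 was 0.22 and Prox1 -0.24, and against D505 Nr1i3 was 0.0167. Leaving out each liver, the CCl4 difference ranged over -0.0169 to 0.401 for Hnf4a, -0.412 to 0.093 for Foxa1, -0.155 to 0.108 for Foxa2 and -0.0114 to 0.18 for Prox1. The hepatectomy difference ranged over -0.109 to 0.0441 for Hnf4a and -0.000673 to 0.172 for Prox1, and knockout-labelled minus wild-type CCl4 livers over -0.217 to 0.0157 for Prox1. The cause of these changes was not tested.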
